A study of Mus musculus with 9 samples.

Results

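The genes described here encode integrin chains, other receptors for the extracellular matrix, the adaptors and kinases that sit on integrin tails, and tetraspanins that travel with integrins. They were taken by symbol from a list of 38 genes, of which all 38 are among the 58735 genes of the count table, and 35 passed the filter on low counts that left 15492 genes for testing. The sequenced RNA came from Caki, a human cell line established from clear cell renal carcinoma, whose cells carried 1 of 3 retrovirus-based constructs. The vector of YAP1-S127A cells encoded a YAP1 whose LATS phosphorylation site, a serine, was replaced by alanine, that of YAP1 cells encoded the wild-type protein, and that of MX cells was empty. Each group had 3 libraries, 9 in all, and cells of all 3 groups were transfected with their vector and selected with G418 in DMEM/F12 medium with FBS. The labels do not say whether a group came from 1 clone or a pool, nor whether its libraries came from separate cultures, so p-values rest on the spread among these libraries alone, and that spread may be technical. The labels give the mouse as organism, but the table lists human Ensembl genes and is read as human.

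An integrin is a complex of 1 alpha and 1 beta chain that binds matrix outside the cell. The chains decide the ligand, so that some complexes bind collagens, others laminins, and others the RGD motif of fibronectin and vitronectin. Inside the cell the beta tail recruits kindlins, the complex of ILK, LIMS and parvin proteins, focal adhesion kinase, Cas scaffolds and tensins, which connect adhesions to actin. Adhesion and matrix stiffness act on YAP1, a coactivator of TEAD transcription factors, and many textbook YAP1 targets encode matrix and adhesion proteins.

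Libraries held 15789722 to 24811150 counts. Levels are in CPM, counts scaled to a common library size after edgeR's TMM correction for composition, and 3 counts corresponded to 0.121 to 0.190 CPM. The introduced gene went with the labels: YAP1 averaged 688 ± 55.0 CPM in YAP1-S127A cells, 1220.0 ± 268 CPM in YAP1 cells and 99.9 ± 8.64 CPM in MX cells (SD, n = 3 each), and the textbook target ANKRD1 averaged 15.2 ± 2.60 CPM in YAP1-S127A cells, 8.81 ± 1.17 CPM in YAP1 cells and 2.15 ± 0.330 CPM in MX cells. The tubule factor PAX8 was present at 228 to 312 CPM and KRT8, KRT18 and VIM were abundant, whereas the renal markers PAX2 and CA9 reached no more than 1 and 18 counts in a library. Of the leukocyte markers PTPRC never exceeded 4 counts and CD3E had 0 in all 9 libraries. Others on that list were counted more, up to 411 for ITGB2, 283 for ITGAX, 80 for ITGAM and 29 for CD14 in a library. Summed endothelial markers stayed at or below 1.89 CPM. Mitochondrial transcripts took 29.6, 7.40 and 21.2% of counts in the YAP1-S127A libraries, 3.50, 8.60 and 11.4% in the YAP1 libraries and 5.89, 6.60 and 1.90% in the MX libraries. A fit with this share as a covariate, and one without YAP1-S127A replicates 1 and 3, are given wherever a call on the list was lost; what part this share has in the results was not tested further.

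The most abundant integrin chains of these Caki cells were ITGB1 and ITGA3. Compared per length of gene (mean CPM per kilobase over the 9 libraries), ITGB1, the beta chain shared by most matrix integrins, was the highest of the 38 at 349, followed by ITGA3, a laminin-binding alpha chain, at 275. Next came the tetraspanin CD151, which binds laminin-binding integrins, at 202, the syndecan SDC4 at 153, the hyaluronan receptor CD44 at 116, the syndecan SDC1 at 71.9 and ITGAV, the alpha chain of the RGD receptors, at 57.7. CD9, CD82 and ITGB5 closed the 10 highest at 33.2, 32.8 and 31.3 CPM per kilobase. This order depends on the deposited gene lengths: in CPM not divided by length ITGA3 was above ITGB1, at 2694 against 2099. At the other end were ITGB7 and the 3 untested genes ITGA10, ITGA9 and ITGA8. ITGA8 was counted at most 5 times in a library, ITGA9 at most 4 times and ITGA10 at most 17 times. Among the alpha chains that can join ITGB1, ITGA3 took 72.7, 71.2 and 72.2% of the summed CPM per kilobase with YAP1-S127A, 78.0, 74.6 and 75.2% with YAP1 and 65.9, 72.3 and 73.4% in MX. ITGAV was second in every library.

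**Figure D1:**
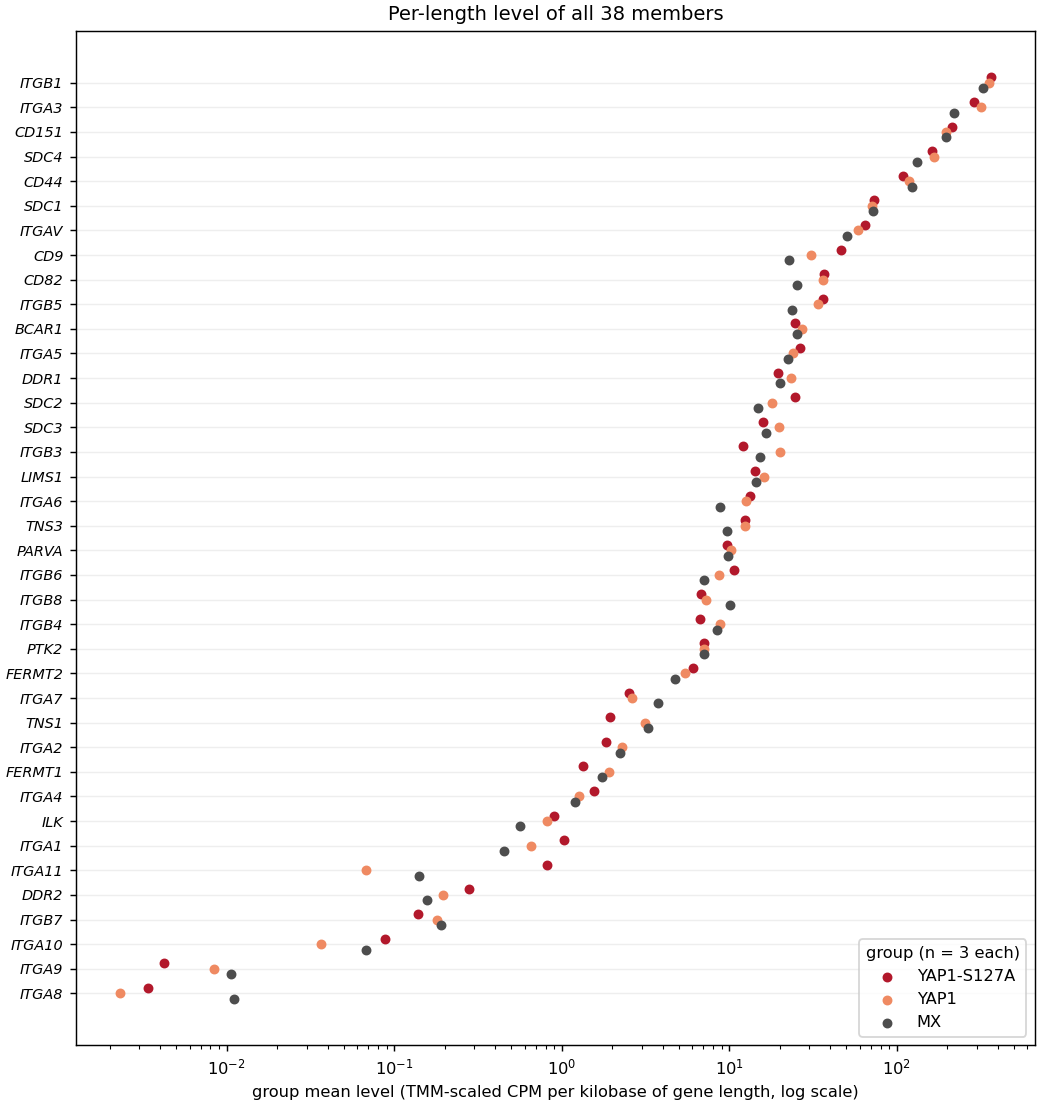
Group mean level of all 38 genes in CPM per kilobase of gene length on a log axis, 1 row per gene ordered by the mean over all libraries, with 1 point each for YAP1-S127A, YAP1 and MX (n = 3 each). ITGB1 and ITGA3 lead at 349 and 275, and ITGA8 and ITGA9 lie at the bottom on a handful of counts.

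In YAP1-S127A cells, which differ from MX cells both in the level of YAP1 RNA and in the altered site, 9 of the 35 tested genes rose and 3 fell, and 23 were not called. Those that rose were the collagen-binding chains ITGA1 and ITGA11, the laminin-binding chain ITGA6, the ITGAV partners ITGB5 and ITGB6, the syndecan SDC2, the kindlin FERMT2 and the tetraspanins CD9 and CD82. Those that fell were ITGA7, ITGB8 and TNS1. Calls required a Benjamini-Hochberg adjusted p below 0.05 over all 15492 tested genes, from the quasi-likelihood test of edgeR. The 12 called are 34.3% of those tested, against 18.4% of all tested genes (2845), and of all tested genes 9.53% were higher and 8.84% lower. The list was chosen with earlier results of these data known, so here and below such a gap in shares does not test the list. The median log2 fold change was 0.17 over the 35 genes and -0.00 over all tested genes, and ITGA1, ITGA11 and CD9 were the 3 called at 2-fold or more. Over all tested genes the 2845 calls dropped to 1847 without YAP1-S127A replicate 3, and with each library left out in turn 9 to 12 of the listed genes were called. With the mitochondrial share as covariate 1286 of all tested genes were called, and 5 of the 12 listed genes kept their call. Of the 35 genes 21 were called in no comparison, and their log2 fold changes ran from -0.43 to 0.81 in YAP1-S127A against MX, from -0.07 to 0.53 in YAP1 against MX and from -0.51 to 0.52 in YAP1-S127A against YAP1. In bulk RNA, fewer cells that carry a transcript and less of it per cell cannot be told apart.

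In YAP1 against MX 3 of the 35 tested genes rose, ITGA3, ITGA6 and CD82, and 2 fell, ITGA7 and ITGB8. These 5 are 14.3% of the tested genes, against 6.81% of all tested genes, with 3.23% higher and 3.58% lower. None of the 5 differed by 2-fold or more, and the median log2 fold change was 0.15, against -0.00 over all tested genes. The calls of this comparison depended on single libraries. Without YAP1 replicate 2 or without MX replicate 3 the count of called genes on the list was 0, and without YAP1 replicate 3 it was 1. Over the whole table the count was 1055 with all libraries, 639 without YAP1 replicate 2 and 601 without YAP1 replicate 3. With the fit restricted to the 2 groups compared, ITGA3, ITGA7 and ITGB8 lost their calls (adjusted p = 0.0539, 0.0567 and 0.0558).

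Between the constructs, YAP1-S127A against YAP1, ITGA1 and ITGA11 rose and ITGB3 and TNS1 fell. YAP1 RNA itself was lower with YAP1-S127A than with YAP1 (log2 fold change -0.83, adjusted p = 0.00383). The altered site and the level of the construct therefore cannot be told apart in this comparison. The 4 called genes of the list are 11.4% of the 35 tested genes, against 1.97% of all tested genes, with 1.13% higher and 0.839% lower. Only ITGA11 of the 4 differed by 2-fold or more, and the median log2 fold change was 0.01, the same as over all tested genes. On the list the count was 0 without YAP1 replicate 3, 2 without YAP1 replicate 2 and 2 without YAP1-S127A replicate 3. Over the whole table it was 305 with all libraries, 188 and 126 without YAP1-S127A replicates 2 and 3, 189, 166 and 144 without YAP1 replicates 1, 2 and 3, and 465 without MX replicate 1. The comparisons against MX share the MX libraries, and each group enters a pair of comparisons, so that the values of a gene in the 3 comparisons are not independent.

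**Figure D2:**
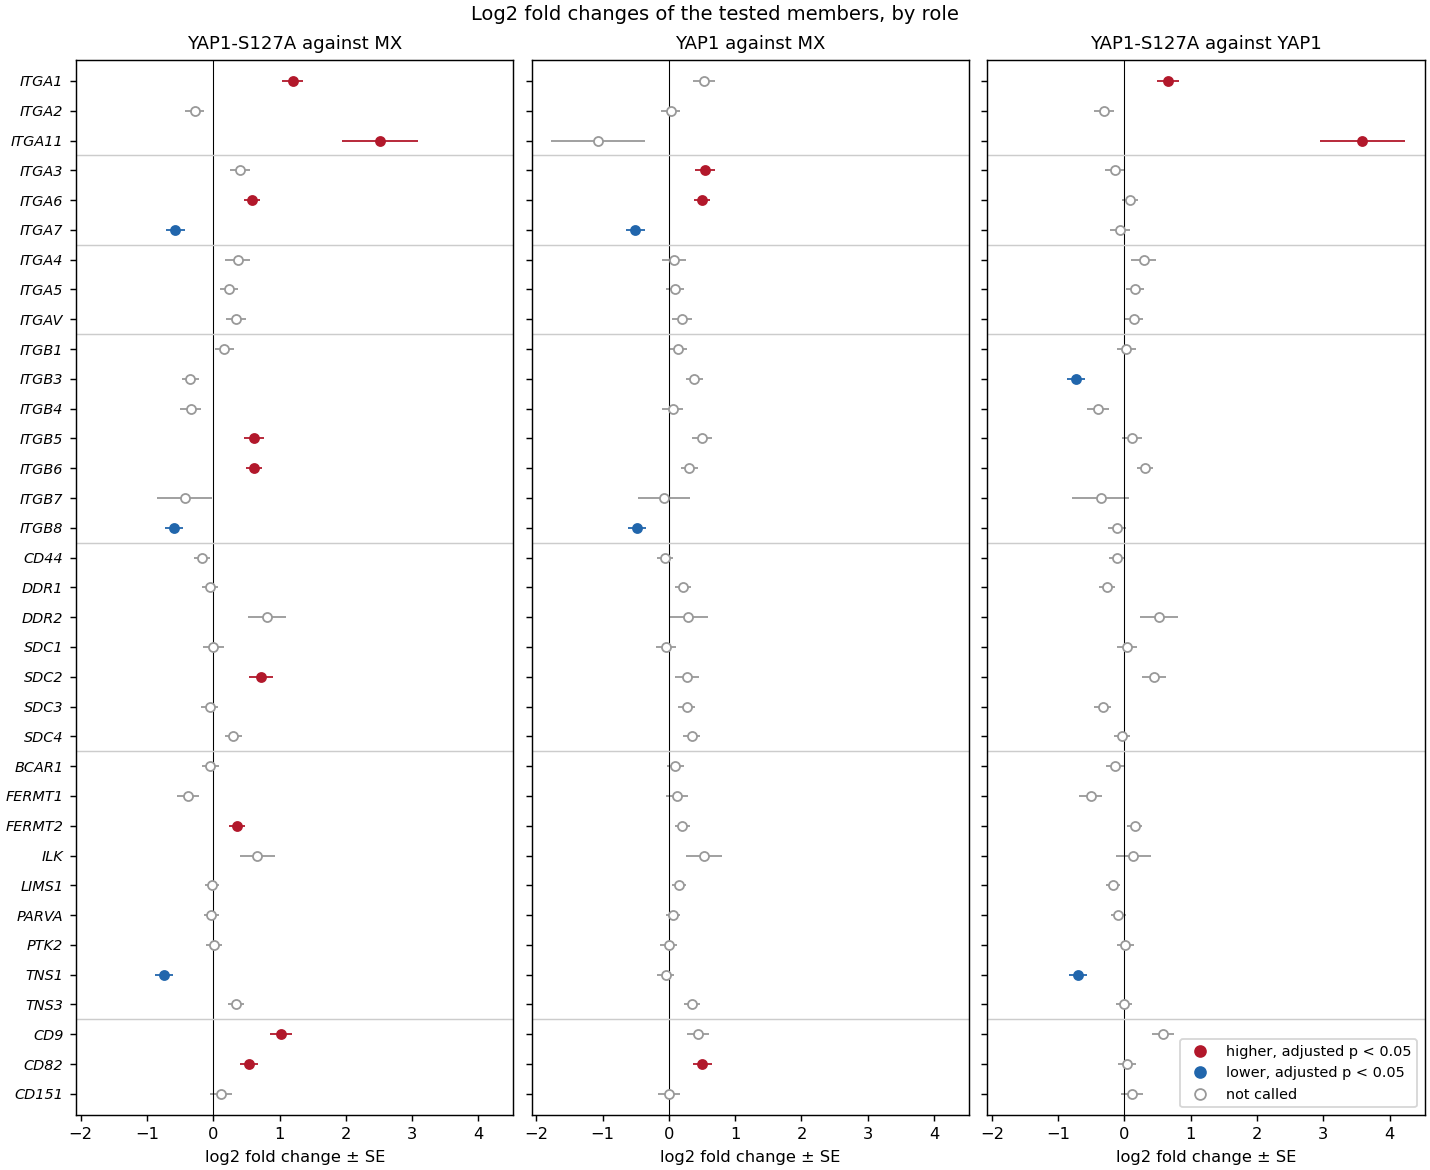
Log2 fold change ± SE of the 35 tested genes in the 3 comparisons (x axes alike), grouped from top to bottom as collagen-binding, laminin-binding and other alpha chains, beta chains, other receptors, adaptors and kinases, and tetraspanins. Filled red and blue points were called higher and lower at an adjusted p under 0.05. ITGA11, at 2.52 with YAP1-S127A against MX and 3.59 against YAP1, has the widest error among the called genes.

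Among the collagen receptors, ITGA1 and ITGA11 rose with YAP1-S127A against both MX and YAP1. ITGA1 encodes the alpha chain that prefers basement membrane collagen and lies on the plus strand of chromosome 5 at 52787896 to 52959210 (positions as in the count table, for whose human build no source used here gives a name). It had 16.9, 19.3 and 21.3 CPM in the YAP1-S127A libraries, 11.1, 12.1 and 13.4 CPM in the YAP1 libraries and 10.2, 8.34 and 6.69 CPM in the MX libraries. The 3 groups did not overlap, and the YAP1-S127A libraries were the highest. The log2 fold changes of ITGA1 were 1.19 (SE 0.16, adjusted p = 3.46e-05) with YAP1-S127A against MX, 0.54 (SE 0.16, adjusted p = 0.0578) with YAP1 against MX and 0.66 (SE 0.16, adjusted p = 0.0388) between the constructs. The first of these calls was kept with every library left out. The difference between the constructs lost its call without YAP1-S127A replicate 2 (0.65, adjusted p = 0.108) or 3 (0.57, adjusted p = 0.239), and without YAP1 replicate 1, 2 or 3 (adjusted p = 0.193, 0.145 and 0.0879). YAP1 against MX passed without MX replicate 1 (0.70, adjusted p = 0.00961), with no filter on low counts, with DESeq2 and with chromosome-wide shifts removed (adjusted p = 0.0305, 0.0366 and 0.0447). With the mitochondrial share as covariate the difference between the constructs had an adjusted p of 0.237, and without YAP1-S127A replicates 1 and 3 one of 0.291. The span of ITGA1 also holds PELO, a ribosome rescue factor gene on the same strand, which averaged 46.1 ± 4.75 CPM with YAP1-S127A, 40.2 ± 0.163 with YAP1 and 32.5 ± 4.92 in MX, a log2 fold change of 0.50 (adjusted p = 0.0082) with YAP1-S127A against MX. How reads in both genes were counted is not stated.

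ITGA11, the alpha chain of a fibrillar collagen receptor known from fibroblasts, lies on the minus strand of chromosome 15 at 68296533 to 68432162. Its raw counts were 47, 269 and 116 in the YAP1-S127A libraries, 23, 7 and 14 in the YAP1 libraries and 59, 20 and 34 in the MX libraries. Scaled, these were 3.58, 17.1 and 6.09 CPM with YAP1-S127A, 1.19, 0.397 and 0.621 CPM with YAP1 and 2.10, 1.21 and 1.28 CPM in MX. All 3 YAP1-S127A libraries lay above the other 6, but they spread widely, with replicate 2 far above the others, and the YAP1 libraries were all below the MX libraries. Fitted log2 fold changes of ITGA11 were 2.52 (SE 0.57, adjusted p = 0.0143) for YAP1-S127A against MX, -1.07 (SE 0.70, adjusted p = 0.473) for YAP1 against MX and 3.59 (SE 0.64, adjusted p = 0.0247) between the constructs. Without YAP1-S127A replicate 2 the first of these was 1.65 and still called, and without MX replicate 1, 2 or 3 it lost its call (adjusted p = 0.0582, 0.0741 and 0.0745). The difference between the constructs was 2.71 without YAP1-S127A replicate 2. It lost its call without YAP1 replicate 2 or 3 (adjusted p = 0.107 and 0.145) and without MX replicate 1, 2 or 3 (adjusted p = 0.0762, 0.073 and 0.0644), although the MX level does not enter that difference; the cause was not tested. With only YAP1-S127A and YAP1 in the fit that adjusted p was 0.157.

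The other collagen receptors were not called in any comparison. ITGA2, the alpha chain of the epithelial collagen receptor, had log2 fold changes of -0.28 (adjusted p = 0.206) with YAP1-S127A against MX, 0.03 (adjusted p = 0.944) with YAP1 against MX and -0.31 (adjusted p = 0.41) between the constructs. The collagen-activated kinase DDR1 had -0.05 (adjusted p = 0.817), 0.21 (adjusted p = 0.372) and -0.26 (adjusted p = 0.395) in the same comparisons. DDR2, its relative for fibrillar collagen, was counted only 24 to 64 times per library and had 0.81 (adjusted p = 0.0587), 0.29 (adjusted p = 0.656) and 0.52 (adjusted p = 0.503), where the first passed without YAP1-S127A replicate 2 (1.06, adjusted p = 0.0142). Of the summed per-length level of the collagen-binding alpha chains, ITGA2 made up 56.4, 41.3 and 51.2% in the YAP1-S127A libraries, 73.0, 78.3 and 73.3% in the YAP1 libraries and 75.8, 76.3 and 79.9% in the MX libraries. ITGA11 made up 10.6, 34.4 and 15.3% with YAP1-S127A, 4.14, 1.08 and 1.83% with YAP1 and 5.59, 4.21 and 4.55% in MX. For both genes the YAP1-S127A shares lay outside the range of the other 6 libraries.

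The laminin-binding alpha chains did not move as a block. ITGA6 rose and ITGA7 fell with either construct, and ITGA3 rose with YAP1. ITGA3, the most abundant alpha chain here, lies on the plus strand of chromosome 17 at 50055968 to 50090481 and had 2602, 2882 and 2979 CPM in the YAP1-S127A libraries, 2824, 3249.9 and 3289 CPM in the YAP1 libraries and 1722, 2335 and 2366 CPM in the MX libraries. All 6 libraries with a YAP1 construct were above the 3 MX libraries, of which replicate 1 was lowest. The log2 fold change was 0.40 (SE 0.15, adjusted p = 0.0707) for YAP1-S127A against MX, 0.54 (SE 0.15, adjusted p = 0.0311) for YAP1 against MX and -0.15 (SE 0.15, adjusted p = 0.765) between the constructs. YAP1-S127A against MX passed with DESeq2 and with limma-voom (adjusted p = 0.019 and 0.0497) and with chromosome-wide shifts removed (0.50, adjusted p = 0.0237). The call in YAP1 against MX was lost without YAP1 replicate 2 (0.52, adjusted p = 0.13) or 3 (0.51, adjusted p = 0.128) and without MX replicate 1 (0.41, adjusted p = 0.0829) or 3 (0.62, adjusted p = 0.0501), and also without YAP1-S127A replicates 1 and 3 (adjusted p = 0.052).

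ITGA6, which with ITGB4 forms the hemidesmosome integrin and also joins ITGB1, lies on the plus strand of chromosome 2 at 172427354 to 172506282. It had 77.3, 93.6 and 89.2 CPM in the YAP1-S127A libraries, 72.4, 87.4 and 86.0 CPM in the YAP1 libraries and 64.0, 54.3 and 55.0 CPM in the MX libraries. The libraries of both constructs were all above MX and overlapped each other. Its log2 fold change was 0.58 (SE 0.12, adjusted p = 0.00188) with YAP1-S127A against MX, 0.50 (SE 0.12, adjusted p = 0.0137) with YAP1 against MX and 0.08 (adjusted p = 0.852) between the constructs. The call with YAP1-S127A was kept with every library left out, and the call with YAP1 was lost without YAP1 replicate 2 (0.46, adjusted p = 0.0815) or 3 (0.47, adjusted p = 0.0767) and without MX replicate 3 (0.47, adjusted p = 0.0696). With the mitochondrial share as covariate YAP1-S127A against MX gave 0.55, adjusted p = 0.0594. ITGB4, its partner in hemidesmosomes, had -0.34 (adjusted p = 0.161), 0.06 (adjusted p = 0.891) and -0.40 (adjusted p = 0.312) in the same comparisons, and the first passed without MX replicate 1 (-0.48, adjusted p = 0.0482).

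ITGA7, a laminin-binding chain best known from skeletal muscle, lies on the minus strand of chromosome 12 at 55684568 to 55716043 and had 17.5, 16.5 and 14.3 CPM in the YAP1-S127A libraries, 13.6, 16.9 and 19.7 CPM in the YAP1 libraries and 22.4, 24.4 and 25.0 CPM in the MX libraries. Here the libraries of both constructs were all below MX, and again overlapped each other. For ITGA7 the log2 fold change was -0.58 (SE 0.15, adjusted p = 0.00872) with YAP1-S127A against MX, -0.51 (SE 0.14, adjusted p = 0.0358) with YAP1 against MX and -0.06 (adjusted p = 0.914) between the constructs. The call with YAP1-S127A was lost without YAP1-S127A replicate 3 (-0.49, adjusted p = 0.0681), without replicates 1 and 3 together (-0.54, adjusted p = 0.167), and with the mitochondrial share as covariate (-0.69, adjusted p = 0.0501). The call with YAP1 was lost without YAP1 replicate 1 (-0.38, adjusted p = 0.165) or 2 (-0.51, adjusted p = 0.12) and without MX replicate 2 (-0.49, adjusted p = 0.0808) or 3 (-0.48, adjusted p = 0.124), and without YAP1-S127A replicates 1 and 3 together (adjusted p = 0.0564). The median over tested genes of chromosome 12 was -0.14 in YAP1 against MX (log2), and with such chromosome-wide shifts removed ITGA7 had -0.38, adjusted p = 0.124.

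Of the 7 tested beta chains 3 were called with YAP1-S127A against MX (42.9%, against 18.4% of all tested genes). All 3 join ITGAV, while ITGAV itself was not called. ITGAV had 465, 533 and 583 CPM in the YAP1-S127A libraries, 357, 544 and 535 CPM in the YAP1 libraries and 441, 413 and 395 CPM in the MX libraries, and its log2 fold changes of 0.34 (adjusted p = 0.121) with YAP1-S127A against MX and 0.20 (adjusted p = 0.506) with YAP1 against MX were not called. Of its partners, ITGB5 and ITGB6 rose and ITGB8 fell with YAP1-S127A, while ITGB3 and ITGB1 were not called against MX. Without ITGB1, which was far more abundant than the others, ITGB5 made up 50.0, 59.6 and 55.4% of the partners' summed CPM per kilobase with YAP1-S127A, 45.5, 51.4 and 47.7% with YAP1 and 34.7, 47.7 and 44.4% in MX. ITGB8 made up 12.1, 8.13 and 10.8% with YAP1-S127A, 11.7, 10.6 and 9.39% with YAP1 and 22.1, 15.8 and 16.2% in MX, so that every MX library held a larger share than any library with a construct. ITGB3 made up 21.9, 15.4 and 18.0% with YAP1-S127A, 29.8, 24.9 and 31.5% with YAP1 and 29.5, 23.5 and 28.6% in MX, where the YAP1-S127A shares were below the other 6.

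**Figure D3:**
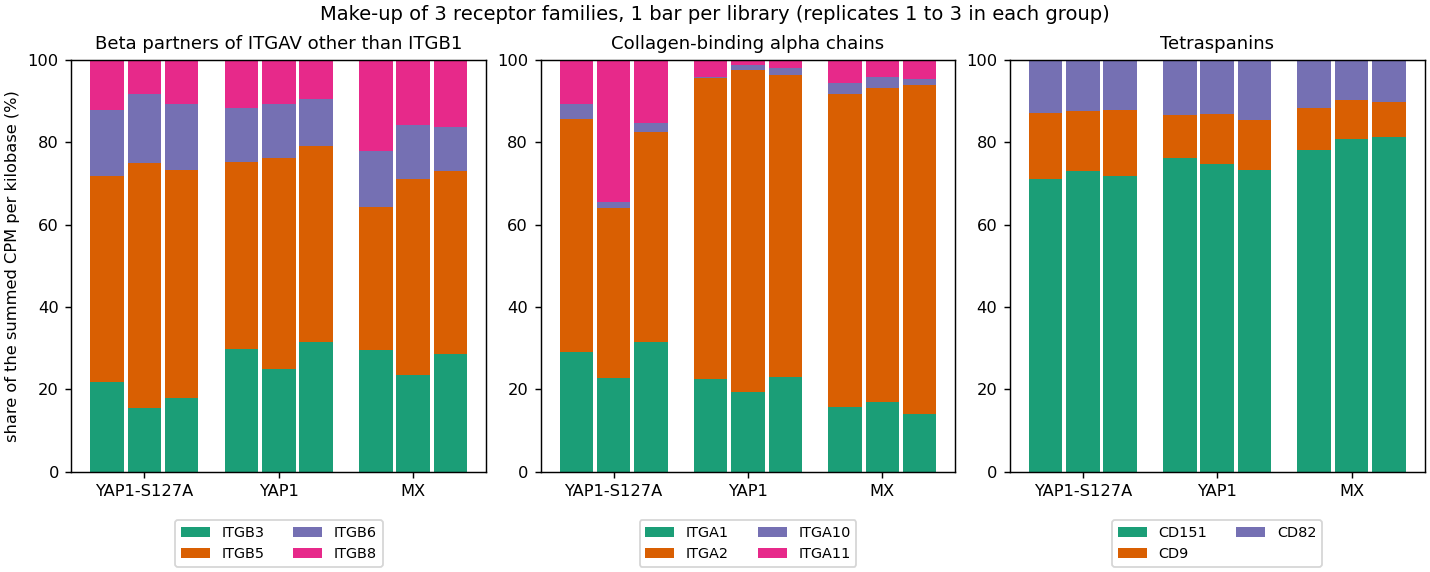
Share in % of the summed CPM per kilobase taken by each gene in 3 families, 1 bar per library with replicates 1 to 3 from left to right within YAP1-S127A, YAP1 and MX. In the left panel ITGB8 is largest in MX, in the middle panel ITGA11 is largest with YAP1-S127A, above all in replicate 2, and in the right panel CD9 is largest with YAP1-S127A.

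ITGB5, whose complex with ITGAV binds vitronectin, lies on the minus strand of chromosome 3 at 124761948 to 124901418. It had 194, 268 and 242 CPM in the YAP1-S127A libraries, 177, 244 and 231 CPM in the YAP1 libraries and 125, 172 and 163 CPM in the MX libraries. The libraries of both constructs were all above MX. Its log2 fold change was 0.61 (SE 0.15, adjusted p = 0.00716) with YAP1-S127A against MX, a call kept with every library left out, and 0.11 (adjusted p = 0.832) between the constructs. YAP1 against MX, at 0.50 (SE 0.15, adjusted p = 0.0514), lay just outside the threshold and passed without YAP1-S127A replicate 1 (0.51, adjusted p = 0.0438) or 2 (0.50, adjusted p = 0.0491), without YAP1 replicate 1 (0.63, adjusted p = 0.0253) and without MX replicate 2 (0.60, adjusted p = 0.0421). It passed as well with no filter, with DESeq2 and with mitochondrial genes left out (adjusted p = 0.00402, 0.0258 and 0.0474). With the mitochondrial share as covariate YAP1-S127A against MX gave 0.67, adjusted p = 0.069.

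ITGB6, the epithelial chain whose complex with ITGAV activates latent TGF-beta, lies on the minus strand of chromosome 2 at 160099666 to 160200313. It had 45.5, 55.1 and 50.5 CPM in the YAP1-S127A libraries, 36.7, 45.1 and 40.4 CPM in the YAP1 libraries and 35.9, 34.1 and 28.8 CPM in the MX libraries. The 3 groups did not overlap. For ITGB6 the log2 fold change was 0.61 (SE 0.13, adjusted p = 0.0017) with YAP1-S127A against MX, 0.31 (adjusted p = 0.168) with YAP1 against MX and 0.31 (adjusted p = 0.303) between the constructs. Its call was kept with every library left out, and with the mitochondrial share as covariate it gave 0.54, adjusted p = 0.0695. ITGB6 overlaps AC092153.1, a processed transcript on the same strand, which averaged 4.42 ± 0.767 CPM with YAP1-S127A, 4.16 ± 1.33 CPM with YAP1 and 2.98 ± 0.531 CPM in MX.

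ITGB8, whose complex with ITGAV also activates latent TGF-beta, lies on the plus strand of chromosome 7 at 20330702 to 20415754. It went the other way, with 110.2, 85.8 and 111 CPM in the YAP1-S127A libraries, 107, 118 and 107 CPM in the YAP1 libraries and 188, 134 and 139 CPM in the MX libraries. The libraries of both constructs lay below all 3 MX libraries, of which replicate 1 was highest. For ITGB8 the log2 fold change was -0.59 (SE 0.14, adjusted p = 0.00501) with YAP1-S127A against MX, kept in every alternative run, and -0.48 (SE 0.14, adjusted p = 0.0422) with YAP1 against MX. The call in YAP1 against MX was lost without YAP1-S127A replicate 1 (adjusted p = 0.0554) or 3 (0.065), without YAP1 replicate 1, 2 or 3 (0.125, 0.089 and 0.172) and without MX replicate 1 (-0.31, adjusted p = 0.104) or 3 (adjusted p = 0.0501). It was lost too with limma-voom and without YAP1-S127A replicates 1 and 3 together (adjusted p = 0.0612 and 0.0543). Between the constructs ITGB8 had -0.11 (adjusted p = 0.809).

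ITGB3, whose complex with ITGAV binds vitronectin and other RGD ligands, was lower with YAP1-S127A than with YAP1. It lies on the plus strand of chromosome 17 at 47253846 to 47311816 and had 58.1, 47.2 and 53.6 CPM in the YAP1-S127A libraries, 78.8, 80.5 and 104 CPM in the YAP1 libraries and 72.6, 57.7 and 71.3 CPM in the MX libraries. The YAP1 libraries were all above MX and the YAP1-S127A libraries all below YAP1, while YAP1-S127A replicate 1 was marginally above the lowest MX library. The log2 fold change was -0.73 (SE 0.13, adjusted p = 0.00497) between the constructs. Against MX it was -0.34 (adjusted p = 0.0823) with YAP1-S127A and 0.38 (adjusted p = 0.0955) with YAP1, neither of them called. The difference between the constructs lost its call without YAP1 replicate 3 (-0.59, adjusted p = 0.0553). YAP1-S127A against MX passed without MX replicate 2 (-0.44, adjusted p = 0.0338) and YAP1 against MX without MX replicate 1 (0.44, adjusted p = 0.046).

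The shared chain ITGB1 was not called in any comparison. It had 2046, 2131 and 2409 CPM in the YAP1-S127A libraries, 1792, 2358 and 2297 CPM in the YAP1 libraries and 2063, 1933 and 1864 CPM in the MX libraries, with overlapping groups, and log2 fold changes of 0.17 (SE 0.14, adjusted p = 0.456) with YAP1-S127A against MX and 0.14 (SE 0.14, adjusted p = 0.665) with YAP1 against MX. ITGA5, the alpha chain of the fibronectin receptor, had 0.24 (adjusted p = 0.238) and 0.09 (adjusted p = 0.789) in these comparisons, and ITGA4, an alpha chain known from leukocytes that binds fibronectin and VCAM1, had 0.37 (adjusted p = 0.188) and 0.08 (adjusted p = 0.874). ITGB7, a lymphocyte chain that joins ITGA4, was counted 5 to 27 times per library and had -0.43 (adjusted p = 0.524) and -0.07 (adjusted p = 0.946).

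**Figure D4:**
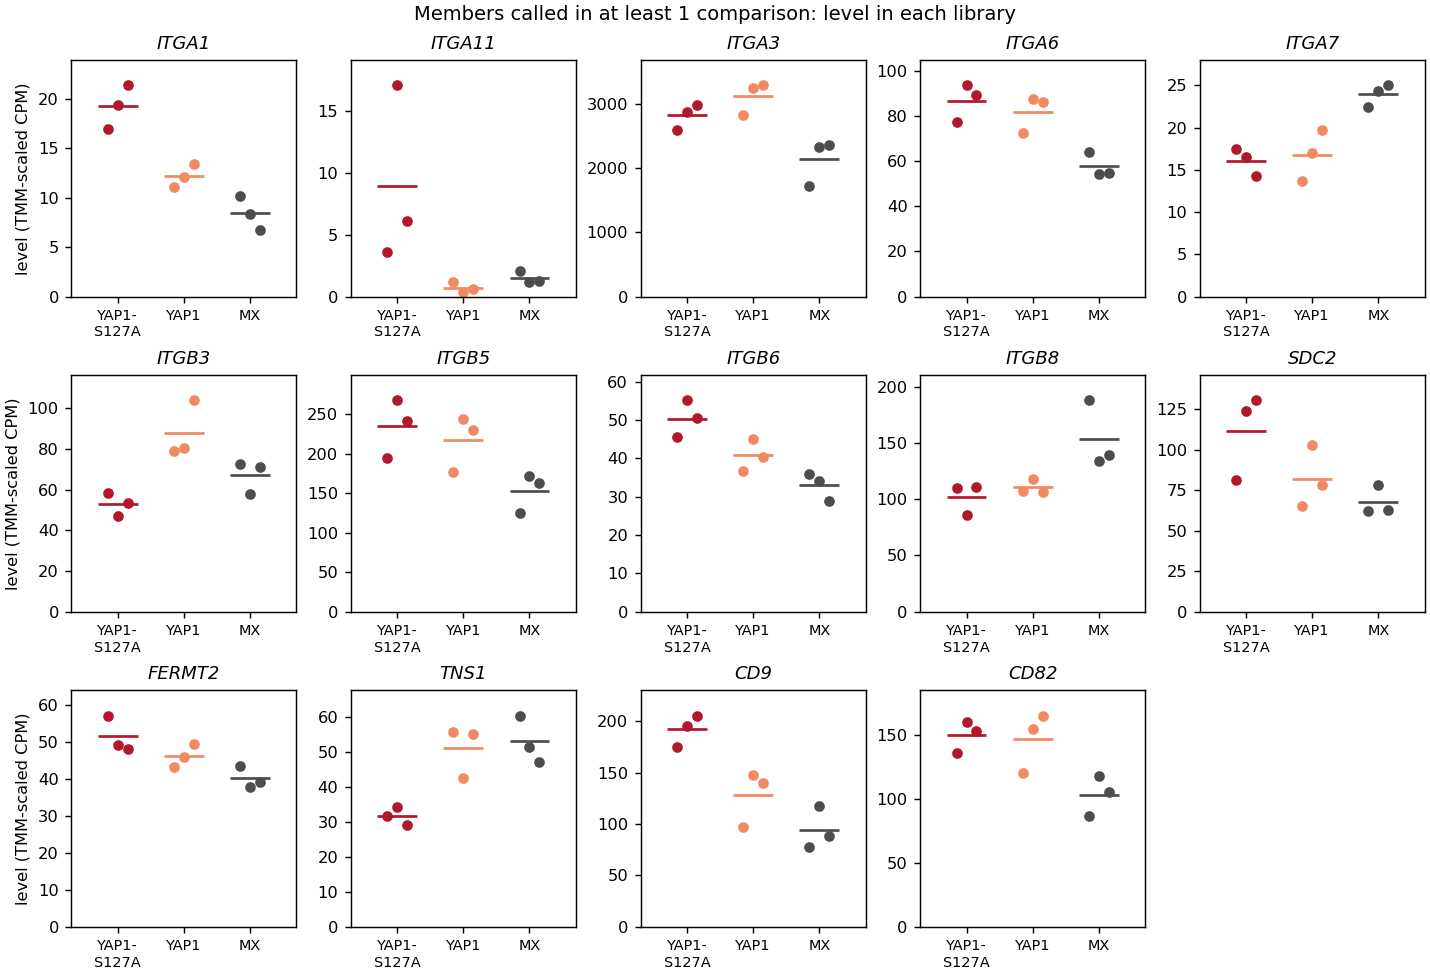
Level in TMM-scaled CPM of the 14 genes called in at least 1 comparison, 1 panel per gene, with 1 point per library (replicates 1 to 3 from left to right), a line at the group mean and y axes from 0. Groups run YAP1-S127A, YAP1 and MX, and ITGA1, CD9 and ITGB6 step down from left to right while ITGB8 and ITGA7 are highest in MX.

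Of the other matrix receptors only SDC2 was called. SDC2, a heparan sulphate proteoglycan that acts as a co-receptor, lies on the plus strand of chromosome 8 at 96493351 to 96611780 and had 81.4, 123 and 130.2 CPM in the YAP1-S127A libraries, 64.9, 103 and 78.3 CPM in the YAP1 libraries and 62.4, 78.0 and 62.8 CPM in the MX libraries. The YAP1-S127A libraries were all above MX, replicate 1 only just, and overlapped the YAP1 libraries. In SDC2 the log2 fold change was 0.73 (SE 0.18, adjusted p = 0.00962) with YAP1-S127A against MX, 0.28 (adjusted p = 0.443) with YAP1 against MX and 0.45 (adjusted p = 0.303) between the constructs. The call was lost without YAP1-S127A replicate 3 (0.61, adjusted p = 0.0542), without MX replicate 1 (0.66, adjusted p = 0.121) and with the mitochondrial share as covariate (0.67, adjusted p = 0.123). Between the constructs SDC2 passed with no filter (adjusted p = 0.049).

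The more abundant receptors of this class were not called. SDC4, the syndecan of focal adhesions, had 382, 473 and 416 CPM in the YAP1-S127A libraries, 461, 451 and 395 CPM in the YAP1 libraries and 319.7, 383 and 327 CPM in the MX libraries. Its log2 fold changes were 0.30 (adjusted p = 0.0989) with YAP1-S127A against MX and 0.34 (adjusted p = 0.112) with YAP1 against MX. CD44 had 1024, 1121 and 1115 CPM in the YAP1-S127A libraries, 1113, 1257 and 1169 CPM in the YAP1 libraries and 1228, 1215 and 1244 CPM in the MX libraries, and its values were -0.18 (adjusted p = 0.348) and -0.06 (adjusted p = 0.848). SDC1, an epithelial syndecan, had 220.5, 308 and 255 CPM in the YAP1-S127A libraries, 225, 283 and 254 CPM in the YAP1 libraries and 204, 303 and 275 CPM in the MX libraries. The YAP1 libraries of SDC4 lay above MX, the YAP1-S127A libraries of CD44 lay below MX, and all 3 groups overlapped for SDC1. For SDC1 the log2 fold changes were 0.00 (adjusted p = 0.994) and -0.04 (adjusted p = 0.927), and SDC3 had -0.06 (adjusted p = 0.818) and 0.27 (adjusted p = 0.247). Between the constructs the 4 genes ran from -0.33 for SDC3 to 0.04 for SDC1, and none was called.

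Among the 9 adaptors and kinases, TNS1 fell and FERMT2 rose with YAP1-S127A against MX. This called share of 22.2% was near the 18.4% of all tested genes. TNS1 encodes tensin 1, which ties beta tails to actin in mature, fibrillar adhesions, and lies on the minus strand of chromosome 2 at 217799588 to 218033982. It had 31.6, 34.3 and 29.1 CPM in the YAP1-S127A libraries, 55.9, 42.7 and 55.2 CPM in the YAP1 libraries and 60.5, 51.4 and 47.3 CPM in the MX libraries. The YAP1-S127A libraries were all below the other 6, while YAP1 and MX overlapped. In TNS1 the log2 fold change was -0.75 (SE 0.13, adjusted p = 0.000478) with YAP1-S127A against MX, -0.05 (adjusted p = 0.882) with YAP1 against MX and -0.70 (SE 0.13, adjusted p = 0.00639) between the constructs. The call against MX was kept with every library left out, and that against YAP1 was lost without YAP1-S127A replicate 3 (-0.64, adjusted p = 0.0686) or YAP1 replicate 3 (-0.64, adjusted p = 0.0544). Without YAP1-S127A replicates 1 and 3 together both calls were lost, with -0.64 against MX and -0.59 against YAP1 (adjusted p = 0.0678 and 0.278). Its relative TNS3 had 0.34 (adjusted p = 0.0568) with YAP1-S127A against MX and 0.35 (adjusted p = 0.101) with YAP1 against MX, and both passed without MX replicate 1 (0.42, adjusted p = 0.0144, and 0.43, adjusted p = 0.0232). With DESeq2 the first had an adjusted p of 0.0313.

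FERMT2, the kindlin that activates integrins outside blood cells, lies on the minus strand of chromosome 14 at 52857268 to 52952435. It had 57.3, 49.3 and 48.2 CPM in the YAP1-S127A libraries, 43.3, 46.0 and 49.4 CPM in the YAP1 libraries and 43.6, 37.8 and 39.2 CPM in the MX libraries. The YAP1-S127A libraries were all above MX and overlapped YAP1. With YAP1-S127A against MX the log2 fold change, 0.36 (SE 0.12, adjusted p = 0.037), was the smallest of the called changes on the list. With 1 library left out, it kept its call only where that was YAP1 replicate 1 or MX replicate 1. It was lost without YAP1-S127A replicate 1, 2 or 3 (adjusted p = 0.169, 0.0624 and 0.0532), without YAP1 replicate 2 or 3 (0.0612 and 0.0513) and without MX replicate 2 or 3 (0.101 and 0.123). With the mitochondrial share as covariate it was 0.22, adjusted p = 0.483, and without YAP1-S127A replicates 1 and 3 together 0.29, adjusted p = 0.376. It was lost too with no filter on low counts and with only the groups compared in the fit (adjusted p = 0.0852 and 0.0693). FERMT1, the epithelial kindlin, had -0.38 (adjusted p = 0.124) with YAP1-S127A against MX, 0.12 (adjusted p = 0.743) with YAP1 against MX and -0.51 (adjusted p = 0.161) between the constructs.

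The central scaffold genes were not called in any comparison. PTK2, which encodes focal adhesion kinase, had log2 fold changes of 0.01 (SE 0.13, adjusted p = 0.979) with YAP1-S127A against MX and -0.00 (SE 0.12, adjusted p = 0.991) with YAP1 against MX. PARVA, an actin-binding parvin, had -0.03 (SE 0.11, adjusted p = 0.888) and 0.06 (SE 0.11, adjusted p = 0.829) in these comparisons. LIMS1, also called PINCH, had -0.02 (SE 0.11, adjusted p = 0.929) and 0.15 (SE 0.11, adjusted p = 0.489). BCAR1, the Cas scaffold, had -0.04 (SE 0.13, adjusted p = 0.865) and 0.10 (SE 0.13, adjusted p = 0.753). A p that misses the threshold does not show that a gene did not differ. ILK, the pseudokinase that joins LIMS1 and PARVA in 1 complex, was counted only 36 to 74 times per library and had 0.67 (adjusted p = 0.0947) and 0.53 (adjusted p = 0.281). Its span overlaps TAF10 on the opposite strand by 4579 bases. TAF10 averaged 79.7 ± 4.15 CPM with YAP1-S127A, 72.4 ± 9.72 CPM with YAP1 and 73.1 ± 24.7 CPM in MX. The library kit keeps strand, but the strand setting of the counting is not stated, so the level of ILK is uncertain. ITGB4 likewise overlaps GALK1, CD151 overlaps POLR2L and ITGB1 overlaps ITGB1-DT on the opposite strand, and none of these neighbours was called. ITGB7 overlaps ZNF740 on the opposite strand by 3824 bases. ZNF740 averaged 30.5 ± 2.16 CPM with YAP1-S127A, 27.7 ± 2.11 CPM with YAP1 and 29.2 ± 1.71 CPM in MX, while ITGB7 averaged 0.760 CPM over the 9 libraries, so its level is uncertain too.

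The tetraspanins CD9 and CD82 rose with YAP1-S127A, and CD151 was not called. CD9, which organises membrane domains with integrins and with metalloproteases, lies on the plus strand of chromosome 12 at 6199715 to 6238271. It had 175, 196 and 206 CPM in the YAP1-S127A libraries, 97.2, 148 and 140.0 CPM in the YAP1 libraries and 78.0, 118 and 88.0 CPM in the MX libraries. The YAP1-S127A libraries were all above the other 6, and the YAP1 and MX libraries overlapped. Its log2 fold change was 1.02 (SE 0.16, adjusted p = 0.000183) with YAP1-S127A against MX, kept in every alternative run. It was 0.44 (SE 0.16, adjusted p = 0.118) with YAP1 against MX and 0.58 (SE 0.16, adjusted p = 0.0756) between the constructs. YAP1 against MX passed without YAP1 replicate 1 (0.61, adjusted p = 0.0299) or MX replicate 2 (0.63, adjusted p = 0.0237), with no filter (adjusted p = 0.0179) and with the shift of chromosome 12 and the other chromosomes removed (0.57, adjusted p = 0.0443). The difference between the constructs passed without MX replicate 2 (0.58, adjusted p = 0.0332), with no filter, with DESeq2 and with only the groups compared (adjusted p = 0.00151, 0.0292 and 0.0229).

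CD82, a tetraspanin known as a suppressor of metastasis, lies on the plus strand of chromosome 11 at 44564427 to 44620363 and had 136, 160.2 and 153 CPM in the YAP1-S127A libraries, 120.0, 154 and 165 CPM in the YAP1 libraries and 86.8, 117 and 105 CPM in the MX libraries. The libraries of both constructs were above all MX libraries and overlapped each other. Its log2 fold change was 0.54 (SE 0.14, adjusted p = 0.00911) with YAP1-S127A against MX, 0.51 (SE 0.14, adjusted p = 0.0294) with YAP1 against MX and 0.03 (adjusted p = 0.956) between the constructs. The call with YAP1-S127A was kept with every library left out. It was lost without YAP1-S127A replicates 1 and 3 together (0.63, adjusted p = 0.0644) and with the mitochondrial share as covariate (0.48, adjusted p = 0.161). The call with YAP1 was lost without YAP1 replicate 2 (0.47, adjusted p = 0.129) or 3 (0.41, adjusted p = 0.18), without MX replicate 1 (0.39, adjusted p = 0.0581) or 3 (0.52, adjusted p = 0.0814) and with that covariate (adjusted p = 0.0784). CD151 had 730.4, 918 and 873 CPM in the YAP1-S127A libraries, 670.3, 852 and 806 CPM in the YAP1 libraries and 566, 945 and 808 CPM in the MX libraries, with log2 fold changes of 0.12 (SE 0.16, adjusted p = 0.666) and 0.01 (SE 0.16, adjusted p = 0.991) against MX. Of the summed per-length level of the 3 tetraspanins CD151 held 71.1, 72.9 and 71.8% with YAP1-S127A, 76.3, 74.6 and 73.4% with YAP1 and 78.2, 80.7 and 81.3% in MX.

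Scaling moved the balance of higher and lower calls. With libraries scaled to total counts, in which the mitochondrial transcripts take part of the depth, the median log2 fold change of all genes moved to -0.28 in YAP1-S127A against MX, to -0.08 in YAP1 against MX and to -0.20 between the constructs. The calls over all genes then split into 611 higher and 3836 lower in YAP1-S127A against MX (1476 and 1369 with TMM), 311 and 679 in YAP1 against MX (500 and 555) and 113 and 503 between the constructs (175 and 130). On the list 3 genes were higher and 8 lower in YAP1-S127A against MX, 0 and 2 in YAP1 against MX, and 0 and 5 between the constructs. Under that scaling CD44, FERMT1, ITGA2, ITGB3 and ITGB4 were newly called lower in YAP1-S127A against MX, and FERMT1, ITGB4 and SDC3 between the constructs. CD9, ITGA1 and SDC2 kept their rise and ITGA7, ITGB8 and TNS1 their fall in YAP1-S127A against MX. The calls of ITGA11, ITGA6, ITGB5, ITGB6, FERMT2 and CD82 in that comparison were lost with adjusted p of 0.0641, 0.129, 0.0893, 0.0951, 0.758 and 0.188, all with the same sign. In YAP1 against MX the rises of ITGA3, ITGA6 and CD82 were lost (adjusted p = 0.122, 0.11 and 0.0995), and between the constructs those of ITGA1 and ITGA11 (adjusted p = 0.143 and 0.0854).

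Genes that work with these receptors were counted beside them, and not all of those called are named. These partner lists were also chosen with earlier results of these data known, so their called shares do not test them. Of 30 tested matrix ligands of integrins 10 rose and 8 fell with YAP1-S127A against MX, 4 rose and 5 fell with YAP1 against MX, and 2 rose and 2 fell between the constructs. These are 60.0, 30.0 and 13.3% of the ligands, against 18.4, 6.81 and 1.97% of all tested genes in the same comparisons. The laminin chain LAMA4, part of laminins that ITGA3, ITGA6 and ITGA7 complexes can bind, had 109, 91.5 and 88.3 CPM in the YAP1-S127A libraries, 152, 185 and 176 CPM in the YAP1 libraries and 356, 319.8 and 322 CPM in the MX libraries. LAMB3, a chain of an epithelial laminin, went the other way, with 202, 237 and 208 CPM in the YAP1-S127A libraries, 146, 169 and 169.6 CPM in the YAP1 libraries and 61.6, 72.8 and 75.9 CPM in the MX libraries. The log2 fold change against MX was -1.79 (adjusted p = 7.78e-09) with YAP1-S127A and -0.96 (adjusted p = 3.67e-05) with YAP1 for LAMA4, and 1.62 (adjusted p = 2.32e-08) and 1.21 (adjusted p = 2.74e-06) for LAMB3. NPNT, a ligand of the ITGA8 integrin, whose alpha chain was all but uncounted here, had 21.0, 35.5 and 42.7 CPM in the YAP1-S127A libraries, 21.2, 35.3 and 26.8 CPM in the YAP1 libraries and 6.63, 5.68 and 4.28 CPM in the MX libraries. Its log2 fold change was 2.59 (adjusted p = 3.19e-05) with YAP1-S127A and 2.33 (adjusted p = 0.000197) with YAP1 against MX.

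Beside the 9 adaptors, 37 further focal adhesion genes were tested. With YAP1-S127A against MX 5 rose and 2 fell, with YAP1 against MX 1 rose and 2 fell, and between the constructs 1 rose and 1 fell. Their called shares of 18.9% with YAP1-S127A and 8.11% with YAP1 were close to the 18.4% and 6.81% of all tested genes, and 5.41% were called between the constructs, against 1.97%. FYN, a Src family kinase of adhesions, had 9.84, 9.83 and 7.62 CPM in the YAP1-S127A libraries, 12.6, 16.0 and 13.2 CPM in the YAP1 libraries and 23.8, 24.3 and 25.4 CPM in the MX libraries, which gave a log2 fold change of -1.44 (adjusted p = 9.59e-07) with YAP1-S127A and -0.82 (adjusted p = 0.000939) with YAP1 against MX. LIMS2, the close relative of LIMS1, was counted 30 to 52 times per library with YAP1-S127A, 4 to 10 times with YAP1 and 7 to 13 times in MX. It rose by 2.73 (adjusted p = 6.68e-05) with YAP1-S127A against MX and by 2.77 (adjusted p = 0.000927) against YAP1.

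Of 20 tested tetraspanins other than the 3 of the list, 5 rose and 2 fell with YAP1-S127A against MX, 3 rose and 2 fell with YAP1 against MX, and 2 rose between the constructs. The called shares were 35.0, 25.0 and 10.0%, against 18.4, 6.81 and 1.97% of all tested genes. TSPAN1 had 24.4, 25.3 and 29.6 CPM in the YAP1-S127A libraries, 17.2, 16.4 and 14.1 CPM in the YAP1 libraries and 8.24, 9.49 and 9.28 CPM in the MX libraries, and the groups did not overlap. It rose by 1.56 (adjusted p = 1.64e-07) with YAP1-S127A and by 0.82 (adjusted p = 0.000889) with YAP1 against MX. TSPAN8, at 0.453 to 0.763 CPM with either construct and 4.10 to 5.49 CPM in MX, had -2.83 (adjusted p = 1.34e-06) and -3.03 (adjusted p = 1.91e-06). Of 14 other matrix and adhesion receptors 5 rose and 0 fell with YAP1-S127A against MX, 3 rose and 0 fell with YAP1 against MX, and 2 rose and 0 fell between the constructs, which makes 35.7, 21.4 and 14.3% called against the same all-gene shares. The immunoglobulin-type adhesion receptor ALCAM rose by 1.45 (adjusted p = 7.64e-08) with YAP1-S127A and by 0.91 (adjusted p = 7.47e-05) with YAP1 against MX.

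The integrins known from leukocytes and platelets were counted apart, and 4 of 7 passed the filter. ITGB2, the leukocyte beta chain, had 12.8, 24.4 and 21.6 CPM in the YAP1-S127A libraries, 4.04, 5.50 and 4.30 CPM in the YAP1 libraries and 0.285, 0.907 and 0.376 CPM in the MX libraries. The groups did not overlap, and the log2 fold change was 5.36 (adjusted p = 2.73e-09) with YAP1-S127A against MX, 3.26 (adjusted p = 7.66e-06) with YAP1 against MX and 2.10 (adjusted p = 0.000232) between the constructs. Of the alpha chains that join ITGB2, ITGAX, at 3.47 to 5.55 CPM with either construct and 7.63 to 10.6 CPM in MX, changed by -1.09 (adjusted p = 0.00105) with YAP1-S127A and by -0.98 (adjusted p = 0.00529) with YAP1. ITGAL never exceeded 3 counts and ITGAM reached 80 counts at most. The summed level of the 8 leukocyte markers, which include ITGB2 and its alpha chains, was 21.5 to 29.7 CPM with YAP1-S127A, 10.1 to 13.0 CPM with YAP1 and 11.2 to 14.3 CPM in MX, while PTPRC and CD3E were at or near 0. ITGB2 alone held 12.8, 24.4 and 21.6 CPM of the 21.5, 29.7 and 29.6 CPM summed in the YAP1-S127A libraries. Without ITGB2, every YAP1-S127A library had a lower sum than every MX library.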

How the data were processed

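Messenger RNA of 9 Caki libraries, 3 per construct, was prepared with a stranded kit and sequenced on an Illumina instrument, per the labels. The authors deposited raw read counts per gene and library, 1 column each, with the length of each gene in bases. HISAT2, Cufflinks, Salmon 1.9.0 and a mouse build are named, with no role, per the submitters' processing notes. The table itself lists human Ensembl genes, and no source used here gives its build, counter, strand setting or filters.

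The 38 genes and the lists of partner genes were chosen with earlier results of these data known. All members are accounted for: those called in any comparison, and the 10 with the highest level per length, have their values in every library, and the rest are given by ranges and counts. From each partner list, called genes with the smallest p were eligible to be named, up to 4 a list and comparison. Libraries were grouped by the construct in their labels. Counts were filtered with filterByExpr, scaled with TMM and fitted in edgeR 4.0.16 (R 4.3.3) with the robust quasi-likelihood model over all 3 groups, and p-values were adjusted by Benjamini-Hochberg over 15492 genes, with a threshold of 0.05. The procedure was tested on simulated data. Levels are CPM of the TMM-scaled library, and per-length levels divide CPM by the deposited gene length in kilobases. The SE is the log2 fold change divided by the root of its F statistic. Intervals from replicates cover only these libraries, and the limit of 3 counts covers counting error only.

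Alternatives were other scalings (total counts, RLE), other filters, DESeq2 1.42.0, limma-voom (limma 3.58.1), a replicate block, the mitochondrial share as covariate, mitochondrial genes left out, chromosome-wide shifts removed, only the groups compared, and each library left out.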

Additional observations from a re-analysis of the deposited data

How the results depend on the processing

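Of 441 recomputed values of the 21 called fold changes on the list, 354 kept their call, 87 lost it and 0 changed sign. Among 1761 recomputed values of fold changes that were not called, 50 became called and 114 changed sign without a call. The counts over all genes moved as follows. In YAP1-S127A against MX, 2845 became 4447 with total count scaling, 1286 with the mitochondrial share as covariate, 1278 without YAP1-S127A replicates 1 and 3, and 1847 to 3079 with each library left out in turn. In YAP1 against MX, 1055 became 601 to 1423 with each library left out. Between the constructs, 305 became 616 with total count scaling, 520 with no filter on low counts, 475 with DESeq2, 478 with only the groups compared in the fit, 151 without YAP1-S127A replicates 1 and 3, and 126 to 465 with each library left out. On the list, the 12 calls in YAP1-S127A against MX became 5 with the mitochondrial share as covariate (CD9, ITGA1, ITGA11, ITGB8 and TNS1), 8 without YAP1-S127A replicates 1 and 3, and 9 to 12 with each library left out. The 5 calls in YAP1 against MX became 2 with total count scaling, 8 with no filter, 2 with only the groups compared, 2 without YAP1-S127A replicates 1 and 3, and 0 to 6 with each library left out. The 4 between the constructs became 2 without YAP1-S127A replicates 1 and 3, and 0 to 4 with each library left out. The cause was not tested. Fewer libraries or an added term leave less information on the spread, but the counts over all genes did not only fall. Without MX replicate 1 they rose to 3079, 1423 and 465, and with the replicate number as a block, given below, they rose too. The mitochondrial share was 29.6, 7.40 and 21.2% in the YAP1-S127A libraries and 5.89, 6.60 and 1.90% in the MX libraries. That covariate goes partly with the group, so its fit cannot fully separate the share from the construct. Leaving out YAP1-S127A replicates 1 and 3 together was chosen after seeing the data and leaves 1 YAP1-S127A library, which is assumed to vary like the other groups. The labels give the groups the same replicate numbers. Correlations of deviations from the group means were -0.18 to 0.20 over the 9 same-numbered pairs of libraries. Over pairs with different numbers they were -0.25 to 0.21. The overlap of these ranges does not decide whether same-numbered libraries share an effect, which was not tested. The main fit did not pair libraries by number, and a fit that does is given beside it. With the replicate number as a block 16 genes of the list and 3426 of all genes were called in YAP1-S127A against MX, 10 and 1428 in YAP1 against MX, and 5 and 472 between the constructs. Under the block ITGA11 lost its calls (adjusted p = 0.0559 with YAP1-S127A against MX and 0.0901 against YAP1), and the block ended no other call on the list. It newly called ITGA3, SDC4, TNS3, ITGB3 and DDR2 in YAP1-S127A against MX, SDC4, ITGB5, CD9, ITGB3 and ITGA1 in YAP1 against MX, and CD9 and SDC2 between the constructs. Depth limits the least counted genes tested: in YAP1-S127A against MX the SE of the log2 fold change was 0.27 for ILK, 0.29 for DDR2 and 0.42 for ITGB7, against 0.14 for ITGB1.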
